A study of Mus musculus with 16 samples.

Results

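Livers of humanized PXR-CAR-CYP3A4/3A7 mice were compared with livers of wild-type C57BL/6 Ntac mice, all given vehicle. The 4 humanized and 4 wild-type vehicle libraries were taken from the sample labels, and every gene that could be tested was included. They are 8 of the 16 libraries of a study of TCPOBOP, a synthetic agonist of mouse CAR; the other 8 came from mice of the same strains given TCPOBOP. Vehicle was 2% DMSO in corn oil, and treated mice received 3 mg/kg in 2 administrations 24 h apart and were examined at 48 h. In the humanized line, as it is known, the mouse genes for PXR (Nr1i2) and CAR (Nr1i3) and most of the mouse Cyp3a cluster were replaced by human sequence. The human genes were not analysed here. The sources used here do not give age, time of day, feeding state, litter or whether the 2 strains were bred side by side. Strain and any such difference between the colonies cannot be told apart. Sex is not given either, but all 8 libraries held Y-linked transcripts and hardly any Xist, with values below. The labels do not say more than that the libraries are separate samples, so p-values measure the spread between these samples.

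CAR and PXR are nuclear receptors that pair with RXR and switch on genes for the uptake, oxidation, conjugation and export of drugs, steroids and bile acids. They also touch glucose and lipid metabolism in hepatocytes. Much of liver metabolism follows the circadian clock, in which ARNTL with CLOCK or NPAS2 activates the Per, Cry, Nr1d and Dbp genes, whose products feed back on the activators. Kupffer cells, the resident macrophages, and sinusoidal endothelial cells make up most of the remaining liver cells and contribute their own transcripts to whole-liver RNA.

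Humanized livers differed from wild-type livers in a large part of the transcriptome. Of 24970 genes in the table, 12913 were tested, and 2074 of these (16.1%) differed at an adjusted p under 0.05. They comprised 918 genes higher in humanized livers (7.11% of genes tested) and 1156 lower (8.95%). Of the 2074, 996 differed at least 2-fold, 425 higher and 571 lower. The libraries of the 2 strains did not overlap for 1789 of the 2074, against 26.4% of all genes tested. Levels are given as TMM-scaled CPM, counts relative to the size of the library, which are not divided by transcript length and are compared between mice, not between genes. Log2 differences are humanized minus wild-type, ± SE, and adjusted p-values are Benjamini-Hochberg values of edgeR's quasi-likelihood test over all genes tested.

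Wild-type replicate 2 stood apart from its group, and the number of calls depended on which libraries were fitted. Library totals were 12612610 to 16904182 counts in humanized and 11827994 to 19483951 in wild-type vehicle mice, and 3 counts corresponded to 0.263 to 0.439 CPM. Wild-type replicate 2 had Spearman correlations of 0.9113 to 0.9376 with the other wild-type libraries, which correlated with each other at 0.9752 to 0.9879. Its genes deviated with GC content, by a median of -0.65 in the lowest of 5 GC classes and 0.33 in the highest on the log2 scale. The humanized vehicle libraries correlated with each other at 0.976 to 0.9874. Leaving out humanized replicate 1, 3 or 4 lowered the 2074 calls to 614, 769 and 793, and leaving out wild-type replicate 1 lowered them to 1289. Without wild-type replicate 2 they rose to 2469. The 490 genes past the threshold with all 8 libraries and without each vehicle library in turn were 196 higher and 294 lower. Upper-quartile scaling changed the split of calls to 1153 higher and 951 lower, so that 54.8% rather than 44.3% were higher. The TCPOBOP mice entered the fit through the filter, the scaling and the estimate of spread. Humanized TCPOBOP replicates 3 and 4 lay near the wild-type mice for most of the genes described here. Without them, an alternative chosen after seeing the data, 3489 genes were past the threshold, among them all 2074.

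The difference between the strains also ran with transcript length. Across the 12809 tested genes with a known length (99.2%), the log2 difference and length had a Spearman rho of -0.34, a description across genes that are not independent replicates. Of 10 length classes of equal size, the shortest had a median log2 difference of 0.52 and the longest of -0.28. In the shortest class 14.9% of genes were higher and 3.2% lower, while in the longest 4.14% were higher and 16.1% lower. A per-library offset for length and GC content was fitted to these same counts, so it flattens such a trend by construction, whatever its cause. The offset reduced the medians to 0.05 and -0.07. It gave 2634 calls among 12809 genes (20.6%), 1169 higher (9.13%) and 1465 lower (11.4%), and 1713 of them were among the 2074. The same trend, 0.43 to -0.08, was present between the strains under TCPOBOP. The plot of medians by length and of each library by GC content shows both patterns.

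**Figure D1:**
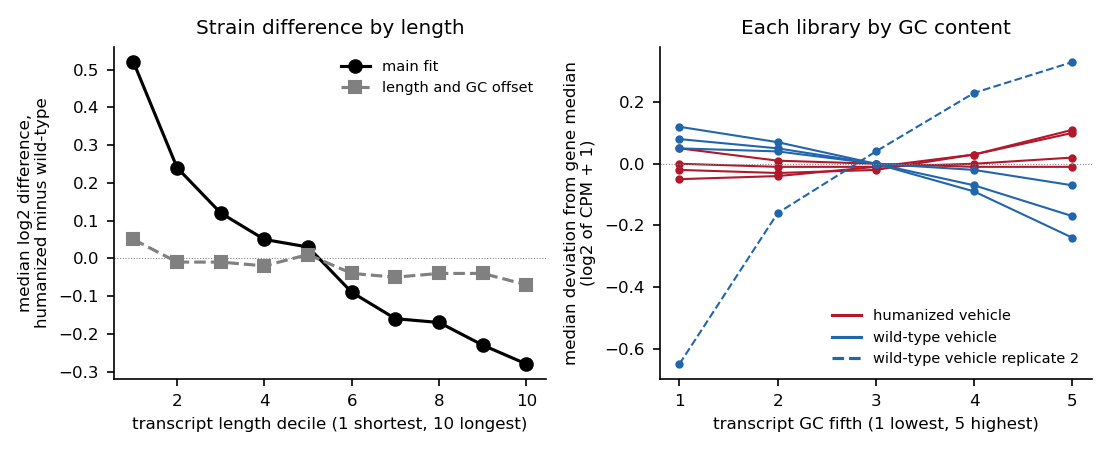
Left, median log2 difference between humanized and wild-type vehicle livers (vertical axis) in 10 classes of transcript length (horizontal axis), without (circles) and with (squares) an offset for length and GC content, and right, each vehicle library's median log2 deviation from the gene median in 5 classes of GC content. The medians fall from 0.52 to -0.28 with length, and wild-type replicate 2 (dashed) runs from -0.65 to 0.33 with GC content.

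Of the 144 genes past the threshold that the rule for named genes or the text takes up, 77 were past it in every alternative fit in which they could be tested. In what follows, a gene given as higher or lower is one of these 77, and its 4 humanized libraries lay outside the range of the 4 wild-type libraries, unless an exception is stated. For those of the other 67 that are described, the settings that ended the call are given with the highest adjusted p reached under any alternative.

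The genes engineered in the humanized line identified its libraries. Nr1i3, which encodes mouse CAR (NM_001243063, mm10 chromosome 1, 171213934 to 171218845), was at 2.7, 1.63, 1.96 and 2.5 CPM in humanized livers and at 107, 93.4, 106 and 94.6 CPM in wild-type livers. It was 45.6-fold lower (-5.50 ± 0.24, adjusted p = 1.22e-10). The PXR gene Nr1i2 (NM_010936), on chromosome 16 from 38248349 to 38294849, was at 17.8, 18.7, 20.7 and 18.6 CPM against 129, 195, 109 and 113 CPM. It was 7.19-fold lower (-2.85 ± 0.20, adjusted p = 1.65e-07) but stayed well above the floor of 3 counts in each humanized library. Cyp3a11 (NM_007818, chromosome 5, 145854607 to 145879854), a main drug-oxidizing enzyme of mouse liver, was at 0.829, 0.466, 0.841 and 0.104 CPM against 1281, 2018, 2881 and 5756 CPM. All 8 libraries thus carried the receptor and Cyp3a levels that their strain labels call for.

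Of 7 tested Cyp3a genes, 4 were lower and 1 was higher. Cyp3a25 was at 0.209 ± 0.191 CPM in humanized and 711 ± 375 CPM in wild-type livers (SD, n = 4). Cyp3a59 was at 1.79 ± 0.525 and 72.9 ± 46.6 CPM. Cyp3a44, without a count in humanized livers, was at least 7.77-fold lower when 3 counts over the humanized group were taken as the floor. Cyp3a57 went the other way, at 4.77 to 6.47 CPM in humanized livers against a single count in the wild-type group, a ratio of 222 with a 95% counting interval of 39.4 to 8807. That count was in wild-type replicate 3. Cyp3a13, known to lie outside the replaced segment, was at 232 to 370.0 CPM in humanized and 110.0 to 268 CPM in wild-type livers (adjusted p = 0.0716). Cyp3a16 did not pass (adjusted p = 0.276), and Cyp3a41a and Cyp3a41b had at most 0.116 CPM in any library and were not tested. Whether human transcripts contributed counts to Cyp3a57 or Nr1i2 was not tested.

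Of the 3 engineered loci, that of Nr1i2 had the largest share of called genes around it. Within 5 Mb of the loci, 43 of 213 tested genes passed (20.2%, against 16.1% of all genes), 17 higher and 26 lower. The share was 33.3% (17 of 51) around Nr1i2, 16.7% (13 of 78) around Nr1i3 and 15.5% (13 of 84) around the Cyp3a cluster. These shares are descriptions, and no test of the difference was made. Tomm40l, a mitochondrial import gene whose span (chromosome 1, 171217802 to 171222514) overlaps that of Nr1i3, was at 35.5 ± 2.9 and 91.8 ± 14 CPM, 2.59-fold lower. The sources used here do not say whether counting used the strand, so reads from these 2 genes cannot be told apart where they overlap. Under TCPOBOP, Tomm40l did not differ between the strains (0.01 on the log2 scale, adjusted p = 0.974), while Nr1i3 was still lower (-3.89). The cause of the Tomm40l difference was not tested. Upk1b, a uroplakin gene near Nr1i2, had no count in humanized livers and 1.17 to 2 CPM in wild-type livers, at least 17.3-fold lower by the same floor. Of 19 genes of CAR, PXR and their partners, 5 were lower and 1 higher (against 8.95% and 7.11% of all genes tested). The 5 include the engineered Nr1i3 and Nr1i2, and 3 were lower with the engineered genes left out. The 5 became 2, the receptor genes themselves, without humanized replicate 1 or 3. They became 3 without humanized replicate 4 or wild-type replicate 1. Rxra, the shared dimer partner, was 1.53-fold lower, a call that ended without humanized replicate 1, 3 or 4 or wild-type replicate 1 (adjusted p up to 0.0933). Nr0b2, the corepressor SHP, was at 102 ± 18.5 and 50.7 ± 14.1 CPM, and lost its call with the length and GC offset and without humanized replicate 1, 2 or 3 or wild-type replicate 4 (up to 0.122).

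Drug-metabolism genes differed in both directions between untreated strains. Some oxidizing enzymes were lower in humanized livers, while several glutathione transferases, which conjugate electrophiles, were higher. Of 23 tested phase I targets of CAR and PXR, 5 were lower and 1 higher, with a median log2 difference of -0.28. Of 38 conjugation and efflux genes, 8 were higher and 3 lower, with a median of -0.13. Over all genes tested the median was 0.00, and 7.11% were higher and 8.95% lower. The 8 higher calls became 3 without humanized replicate 1 and 5 without humanized replicate 4 or wild-type replicate 1 or 3. The 3 lower calls became 6 without wild-type replicate 2 and 9 with the length and GC offset.

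Cyp2c50, a drug oxidase of the Cyp2c family, was at 125, 135, 148 and 133 CPM in humanized livers and 344, 172, 834 and 797 CPM in wild-type livers. It was 3.97-fold lower (-1.99 ± 0.36, adjusted p = 0.00384), and the wild-type libraries spread far more widely than the humanized ones. Its close relative Cyp2c54 was 3.09-fold lower, and the groups met at wild-type replicate 2 (84.2 CPM, against up to 93.3 CPM in humanized livers). Cyp1a1 and Cyp1a2, which oxidize aromatic compounds, were 3.13-fold and 1.92-fold lower. Cyp1a2 was at 429, 346, 333 and 345 CPM against 689, 521, 781 and 801 CPM. Cyp2b10, the classical CAR target, was at 23.1, 14.9, 15.6 and 16.1 CPM against 16.4, 37.3, 89.9 and 49.3 CPM. Its groups overlapped, and its call (-1.47 ± 0.41, adjusted p = 0.0253) ended without any 1 of the humanized replicates or wild-type replicate 3 (up to 0.0903). Cyp2a5, a coumarin hydroxylase, was 2.07-fold higher, a call lost without humanized replicate 1 or 3 or wild-type replicate 3 or 4 (up to 0.107). Cyp2c29 (2165 ± 195 and 1990.1 ± 985 CPM, adjusted p = 0.791) and Por, the electron donor of microsomal P450s (552 ± 43.6 and 730.4 ± 415 CPM, adjusted p = 0.36), did not pass.

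Gstm3, a glutathione transferase, was at 189, 135, 184 and 174 CPM in humanized livers against 40.8, 55.2, 45.6 and 30.2 CPM in wild-type livers, 3.98-fold higher (1.99 ± 0.24, adjusted p = 0.000175). Gstm6 was 1.86-fold higher. Gsta1 was low throughout, at 0.939 to 3.21 CPM in humanized and 0 to 0.364 CPM in wild-type livers, and was 11.6-fold higher. On the log2 scale its difference was 3.33, against 2.73 without humanized replicate 1 and 4.33 without wild-type replicate 4. Nqo1, a quinone reductase and NRF2 target, was at 13.3 ± 1.87 and 4.81 ± 1.81 CPM. It was the 1 higher gene of 17 tested NRF2 targets, where 7.11% of all genes tested were higher and 8.95% lower. With upper-quartile scaling, in DESeq2 or without wild-type replicate 2, 2 were higher. Me1, the 1 lower NRF2 target, lost its call without humanized replicate 1, 3 or 4 or wild-type replicate 1 or 4 (adjusted p up to 0.0917). The sulfotransferase Sult5a1 was 3.33-fold lower (-1.74 ± 0.21, adjusted p = 0.000159). Slco1a1, an organic anion uptake transporter, was at 38.3, 63, 91.9 and 46.5 CPM against 397, 46.4, 473 and 541 CPM. Wild-type replicate 2 lay within the humanized range for Slco1a1, and the other wild-type libraries lay above it. Members of the Gsta, Gstm, Cyp2c and Cyp3a families share sequence, so values of single members are less certain than those of other genes.

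Clock genes differed in both directions. The activators Arntl and Npas2 were higher in humanized livers, and targets such as Per3 and Dbp were lower. Of 18 core clock genes, 3 were higher and 4 lower, and the 4 became 1 without humanized replicate 1 or 4 or wild-type replicate 1 and 2 without humanized replicate 3. Of 26 clock output genes, 3 were higher and 8 lower, where 7.11% of all genes tested were higher and 8.95% lower. Of 18 called genes from these lists, 15 had a promoter in the RefSeq table (GRCm38.p6), from 250 bases before to 50 after a start site, which need not be that of the counted accession. Promoters of 4 called genes, Arntl and Nfil3 (higher) and Per3 and Tef (lower), are shown because they hold a motif by which clock proteins or their partners are known to bind. Capitals mark the motif, TAGGTCA (the ROR core, a motif added after the values were seen) in Arntl and, as its reverse complement, in Nfil3, TTATGTAA (the D-box) in Per3 and CACGTG (the E-box) in Tef. Each runs 5′ to 3′ along its gene, and positions count from the start site.
Arntl, chr7:113207261-113207560, plus strand: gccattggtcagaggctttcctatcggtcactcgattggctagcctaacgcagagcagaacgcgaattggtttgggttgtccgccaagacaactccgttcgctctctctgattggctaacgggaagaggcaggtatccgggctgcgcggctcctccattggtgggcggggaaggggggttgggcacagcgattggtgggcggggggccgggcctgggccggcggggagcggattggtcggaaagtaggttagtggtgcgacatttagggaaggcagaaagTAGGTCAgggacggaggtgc
Nfil3, chr13:52980990-52981289, minus strand: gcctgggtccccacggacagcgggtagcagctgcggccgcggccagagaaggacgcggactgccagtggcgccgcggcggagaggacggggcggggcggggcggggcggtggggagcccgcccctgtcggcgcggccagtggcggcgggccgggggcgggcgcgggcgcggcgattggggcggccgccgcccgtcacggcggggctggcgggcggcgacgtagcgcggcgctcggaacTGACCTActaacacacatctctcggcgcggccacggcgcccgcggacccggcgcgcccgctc
Per3, chr4:151044616-151044915, minus strand: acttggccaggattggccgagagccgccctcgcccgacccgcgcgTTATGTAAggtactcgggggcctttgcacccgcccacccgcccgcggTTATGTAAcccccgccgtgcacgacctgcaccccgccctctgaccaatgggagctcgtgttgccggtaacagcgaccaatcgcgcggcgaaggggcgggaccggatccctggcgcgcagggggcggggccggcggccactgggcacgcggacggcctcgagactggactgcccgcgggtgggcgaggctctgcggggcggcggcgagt
Tef, chr15:81802423-81802722, plus strand: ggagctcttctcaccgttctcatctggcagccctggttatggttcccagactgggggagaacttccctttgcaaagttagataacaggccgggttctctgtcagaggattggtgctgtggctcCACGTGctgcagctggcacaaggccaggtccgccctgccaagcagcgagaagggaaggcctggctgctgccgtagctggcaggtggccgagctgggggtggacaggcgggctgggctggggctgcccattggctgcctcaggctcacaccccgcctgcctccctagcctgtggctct
The motif begins at base 31 in Arntl, -12 in Nfil3, -205 and -158 in Per3 and -127 in Tef. Searched on both strands, the E-box was present in 3 of the 15 promoters (20%; Cry1, Bhlhe41 and Tef) and in 11.8% of 10226 tested genes with a promoter. The D-box was present in 1 of 15 and in 0.675% of tested genes, and the ROR core in 2 of 15 and in 2.53%. Among all called genes the E-box was in 10% of higher and 11.4% of lower genes. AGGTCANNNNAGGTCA, the direct repeat at which CAR and PXR can bind, was in none of the 10226 windows on either strand. Such a repeat holds the ROR core where a T precedes a repeat unit, so the motifs can overlap. A match is a description of letters in this window, and no match says only that these letters are not in it.

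Arntl (NM_007489, chromosome 7, 113178471 to 113314126), which encodes the clock activator BMAL1, was at 24.7, 31, 26.6 and 30.7 CPM in humanized livers and 7.92, 5.14, 16.1 and 7.46 CPM in wild-type livers. It was 3.09-fold higher (1.62 ± 0.39, adjusted p = 0.0152), with wild-type replicate 3 closest to the humanized range. Npas2, a partner of ARNTL, was at 6.64, 7.68, 5.33 and 10.6 CPM against 0.44, 0.761, 1.69 and 0.546 CPM, 8.81-fold higher. Clock itself was at 45.2 and 41.5 CPM and did not pass (adjusted p = 0.695).

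Of the repressors, Per3 was at 5.81, 5.12, 4.2 and 6.05 CPM against 35.9, 28, 7.32 and 30.9 CPM, 4.82-fold lower (-2.26 ± 0.45, adjusted p = 0.00667). Wild-type replicate 3 again lay nearest to the humanized livers. Per2 (17.5 ± 6.81 and 29.1 ± 14.3 CPM, adjusted p = 0.131) and Nr1d1, which encodes REV-ERBα (72.5 ± 19.6 and 105 ± 23.5 CPM, adjusted p = 0.0965), did not pass. Cry1 was 1.68-fold higher, a call that ended without humanized replicate 3 or 4 or wild-type replicate 3 (adjusted p up to 0.0733). Bhlhe40, which encodes the repressor DEC1, was 2.27-fold lower, a call that ended without humanized replicate 1 or 4 or wild-type replicate 1 (up to 0.0662).

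The output genes gave larger differences. Dbp (NM_016974, chromosome 7, 45705100 to 45710203), a D-box activator under direct clock control, was at 4.35, 6.29, 3.92 and 3.97 CPM in humanized livers and 81.3, 44.4, 11.6 and 75.2 CPM in wild-type livers. It was 11.5-fold lower (-3.51 ± 0.54, adjusted p = 0.00131), and wild-type replicate 3 was the lowest of its group. Nfil3, the repressor that competes with DBP at the D-box, was at 91.8, 92.4, 139 and 108 CPM against 17.9, 20.6, 35.8 and 22.9 CPM. It was thus 4.43-fold higher (2.14 ± 0.35, adjusted p = 0.00195), opposite to Dbp. Tef, a relative of Dbp, was 2.04-fold lower and lost its call without humanized replicate 3 (adjusted p = 0.0554).

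Noct, a rhythmic phosphatase also called nocturnin, had the smallest adjusted p of the clock lists. It was at 199, 116, 242 and 130.0 CPM in humanized livers against 17.9, 14.5, 11 and 17.3 CPM in wild-type livers, 11.3-fold higher (3.51 ± 0.29, adjusted p = 1.43e-06). Every humanized library was above 100 CPM and every wild-type library below 18 CPM. Rgs16, a regulator of G-protein signalling, was at 13.7, 26.8, 7.85 and 15.2 CPM against 242, 103, 151 and 416 CPM, 14.4-fold lower. Wee1, a clock-controlled cell cycle kinase, was 5.19-fold lower and lost its call without humanized replicate 1 (adjusted p = 0.063). The dot plot of 12 clock and output genes shows both directions in single libraries.

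**Figure D2:**
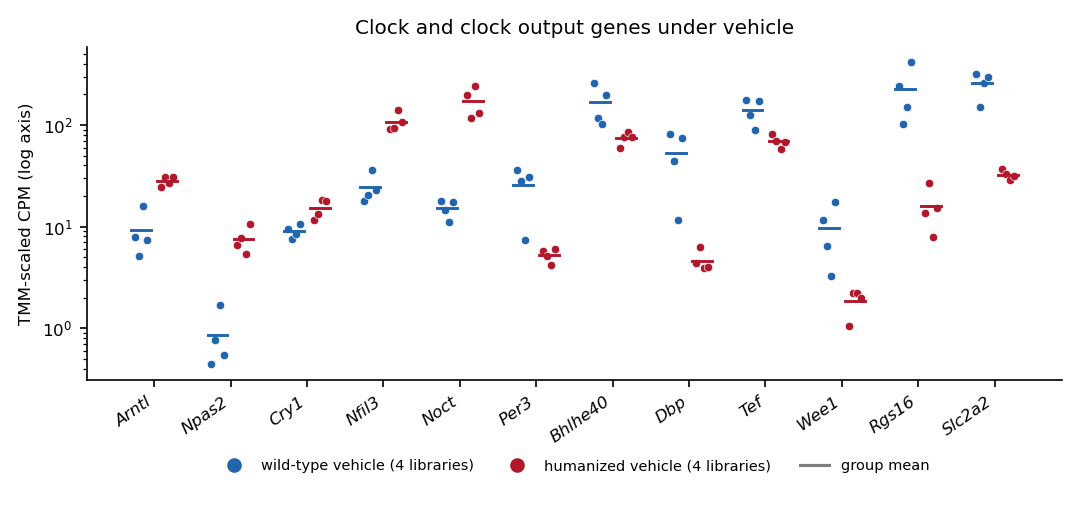
TMM-scaled CPM on a log axis for 12 clock and clock output genes in the 4 wild-type (blue) and 4 humanized (red) vehicle libraries, with lines at the group means. Arntl, Npas2, Cry1, Nfil3 and Noct lie higher and the other 7 genes lower in humanized livers, and wild-type replicate 3 is the blue point nearest to the red ones for Arntl, Per3 and Dbp.

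Several genes of glucose uptake, glycolysis and glycogen handling were lower in humanized livers. Of 28 listed genes, 8 passed the threshold, each lower (against 8.95% lower of all genes tested), and 8 or 9 were lower without any 1 vehicle library. The median of the list was -0.29. Slc2a2, which encodes the hepatocyte glucose transporter GLUT2 (NM_031197, chromosome 3, 28697903 to 28728361), was at 36.9, 32.9, 28.9 and 31.5 CPM in humanized livers and 316, 150.3, 260.4 and 299 CPM in wild-type livers. It was 7.88-fold lower (-2.98 ± 0.34, adjusted p = 0.000105), and wild-type replicate 2, the lowest of its group, lay far above every humanized library.

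Pklr, the liver pyruvate kinase, was at 60.4, 82.4, 53.4 and 54.5 CPM against 499, 364, 156 and 258 CPM, 5.1-fold lower. Pfkfb3, which makes the activator of phosphofructokinase, was at 12 ± 3.01 and 67.6 ± 18.2 CPM, 5.64-fold lower. Glycogen genes were lower on both the making and the breaking side. Gys2, the liver glycogen synthase, was 2.11-fold lower, Gbe1, the branching enzyme, 3.04-fold lower and Pygl, the liver phosphorylase, 2.23-fold lower. Pcx, pyruvate carboxylase, was 1.95-fold lower and Slc37a4, the glucose-6-phosphate transporter, 1.56-fold lower. Pck1 and G6pc, enzymes of glucose output, did not pass. Pck1 was at 4637 ± 960.1 and 4458 ± 745 CPM (adjusted p = 0.901) and G6pc at 385 ± 87.5 and 363 ± 177 CPM (0.903).

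Genes of fatty acid synthesis were mostly lower where they passed. Of 29 lipogenesis genes, 8 were lower and 2 higher (against 8.95% and 7.11% of all genes tested), with a median of -0.51. The 8 became 4 without humanized replicate 3 or 4, and the 2 became 1 without humanized replicate 1, 3 or 4 or wild-type replicate 1, 3 or 4. Fasn, fatty acid synthase, was at 412, 463, 267 and 395 CPM in humanized livers and 1958, 2799, 501 and 740.3 CPM in wild-type livers. It was 3.9-fold lower (-1.96 ± 0.43, adjusted p = 0.0103), with an upper pair and a lower pair of wild-type libraries. Thrsp, a lipogenic regulator, was 4.26-fold lower, at 187 to 279.9 CPM in humanized and 311 to 1617 CPM in wild-type livers. Gpam, the acyltransferase that starts glycerolipid synthesis, was 1.84-fold lower. Dgat1, which completes triglyceride synthesis, was higher at 29.2 ± 3.19 against 17.9 ± 1.42 CPM. Srebf1, the lipogenic transcription factor (237 ± 44.8 and 438 ± 329 CPM, adjusted p = 0.178), and Scd1 (6206 ± 2289 and 6490.5 ± 2108 CPM, adjusted p = 0.929) did not pass.

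Of 39 tested genes of fatty acid oxidation and PPARα targets, 8 were lower and 1 higher (against 8.95% and 7.11% of all genes tested). The median of the list was -0.14. The 8 became 3 without humanized replicate 1, 4 without humanized replicate 3 or 4 and 5 without wild-type replicate 1 or 4. Bdh1, a ketone body dehydrogenase, was at 105, 125, 96 and 102 CPM in humanized livers and 196, 285, 219 and 202 CPM in wild-type livers, 2.1-fold lower (-1.07 ± 0.17, adjusted p = 0.00157), and Ucp2, a mitochondrial carrier, 2.59-fold lower. Pdk4, a kinase that shuts pyruvate dehydrogenase, was the 1 member higher, at 22.2, 16.9, 17.2 and 41.1 CPM against 3.82, 6.56, 6.76 and 10.1 CPM. Ppara itself was 1.96-fold lower, and its call ended without any 1 humanized replicate or wild-type replicate 1, 3 or 4 (adjusted p up to 0.0879). Ehhadh, a peroxisomal oxidation enzyme, reached 2041 CPM in wild-type replicate 2, while the other wild-type libraries held 186 to 321 CPM. Its call (-1.98 on the log2 scale) ended without that library (-0.58, adjusted p = 0.165), as it did with the replicate block and without humanized replicate 1, 3 or 4. Cpt1a, the gate of mitochondrial fatty acid entry, did not overlap between the strains (222 to 260.3 and 323 to 498 CPM) but did not pass (adjusted p = 0.0868).

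Of 25 cholesterol synthesis genes, 8 were lower (against 8.95% lower of all genes tested) and none higher, with a median of -0.50. The 8 calls became 0 without humanized replicate 1 or 3, 2 without humanized replicate 4, 4 without wild-type replicate 3 or 4 and 5 with upper-quartile scaling. Sqle, squalene epoxidase, was at 87.7 ± 33.6 and 164 ± 28.9 CPM (adjusted p = 0.0156), and its call ended without humanized replicate 1 or 3 (up to 0.0557). Mvk, mevalonate kinase, was at 18.6, 26.5, 14.3 and 21.7 CPM against 34.6, 52.8, 31.9 and 32.7 CPM, 1.88-fold lower, and its call ended without humanized replicate 1, 3 or 4 (up to 0.0729).

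Lipoprotein and bile acid genes differed in both directions. Of 29 lipoprotein and sterol transport genes, 3 were higher and 5 lower, and of 23 bile acid genes, 1 was higher and 2 were lower, where 16.1% of all genes tested passed. In the first list, the 5 lower calls became 0 without humanized replicate 1, 2 without humanized replicate 3 or 4 and 8 in a fit of the 8 vehicle libraries alone. Its 3 higher calls became 1 without humanized replicate 1, 3 or 4 and 5 without wild-type replicate 2 or with the vehicle libraries alone. In the second list, the 2 lower calls became 7 without wild-type replicate 2 and 4 with the length and GC offset, and the 1 higher call was lost with that offset and without humanized replicate 1, 2 or 3 or wild-type replicate 4. Slc10a1, the NTCP transporter that takes bile acids into hepatocytes, was at 197, 274, 206 and 209.8 CPM in humanized livers and 600.3, 588, 551 and 651 CPM in wild-type livers. It was 2.7-fold lower (-1.43 ± 0.23, adjusted p = 0.00204), with a gap between the groups wider than the range of either. Klb, the co-receptor through which FGF15 reaches hepatocytes, was at 16.7 ± 5.89 and 51.5 ± 9.37 CPM. Cyp7a1 (117 ± 37.1 and 104 ± 8.19 CPM, adjusted p = 0.75) and Cyp8b1 (290.5 ± 83.2 and 218 ± 104 CPM, adjusted p = 0.489), the enzymes that set bile acid output and composition, did not pass. Apoc1, an apolipoprotein with a short transcript, was 2.59-fold higher, and its call ended with the length and GC offset (adjusted p = 0.0703). Mttp, which loads lipid onto apolipoprotein B, was 1.81-fold lower, a call that ended without humanized replicate 1 (0.0509). The dot plot of list members shows these groups beside those that follow.

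**Figure D3:**
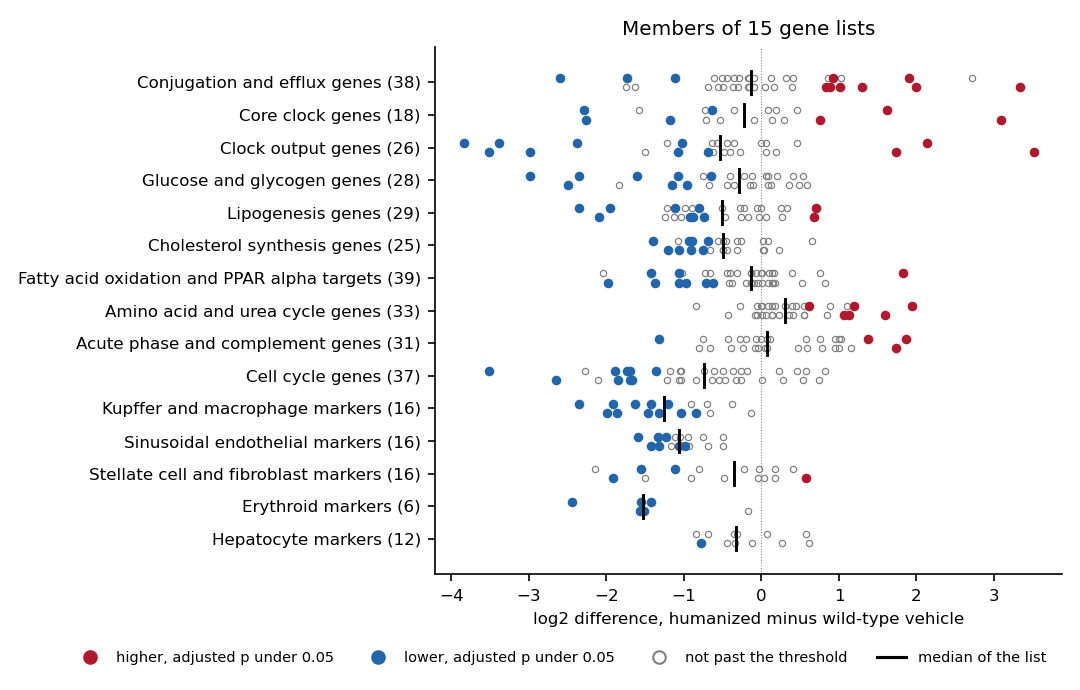
Log2 differences, humanized minus wild-type vehicle (horizontal axis), of every tested member of 15 gene lists (number tested in brackets), filled where the adjusted p was under 0.05 (red higher, blue lower) and open otherwise, with a bar at the median of each list. Medians range from -1.53 for erythroid markers to 0.31 for amino acid and urea cycle genes.

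Some amino acid enzymes were higher in humanized livers. Of 33 amino acid and urea cycle genes, 6 passed, each higher (against 7.11% higher of all genes tested), with a median of 0.31. The 6 became 3 without humanized replicate 3 and 14 without wild-type replicate 2. Oat, ornithine aminotransferase, was at 2089, 1621, 1577 and 1709.6 CPM in humanized livers and 469, 484, 639 and 708 CPM in wild-type livers, 3.04-fold higher (1.60 ± 0.27, adjusted p = 0.00257). Cth, which makes cysteine from cystathionine, was at 868 ± 31.2 and 396 ± 115 CPM. Asns, asparagine synthetase, was 3.85-fold higher, a call that ended without humanized replicate 3 (adjusted p = 0.0546).

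Of 15 growth arrest and p53 genes, 3 were higher (against 7.11% of all genes tested) and none lower, with a median of 0.25. Some cell cycle genes were lower. Cdkn1a, which encodes the cell cycle inhibitor p21 (NM_007669, chromosome 17, 29090979 to 29100722), was at 46.9, 38.9, 86.1 and 84.3 CPM in humanized livers and 4.11, 10.6, 14.1 and 4.64 CPM in wild-type livers. It was 7.67-fold higher (2.92 ± 0.49, adjusted p = 0.00238). Bbc3, a p53 target that promotes apoptosis, was 2.44-fold higher. Of 37 cell cycle genes, 9 were lower (against 8.95% of all genes tested), with a median of -0.74. That number was 2 without each humanized replicate in turn or without wild-type replicate 2, and 3 without wild-type replicate 1 or in a fit of the 8 vehicle libraries alone. The summed level of the list was 861 to 1303 CPM in wild-type TCPOBOP livers, against 130.5 to 454 CPM in wild-type vehicle livers. The low-count filter used all 16 libraries, so members low under vehicle could be tested through the wild-type TCPOBOP group. A called member had 1 count in the humanized and 17 in the wild-type vehicle group. Rrm2, a ribonucleotide reductase subunit, was at 2.8, 2.1, 1.96 and 2.3 CPM against 15, 6.47, 4.13 and 5.18 CPM. Ccnd1, cyclin D1, was at 23.2, 15.8, 13.2 and 16.5 CPM against 21.7, 133, 29.3 and 45.9 CPM, and its groups overlapped at wild-type replicate 1. The log2 difference of Ccnd1 was -1.74, and -0.92 without wild-type replicate 2. Mki67, the proliferation marker, did not pass (1.9 ± 0.852 and 3.91 ± 1.74 CPM, adjusted p = 0.0562).

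Among stress and acute phase genes, those for hepcidin and a metallothionein were higher in humanized livers. Hamp, which encodes the iron hormone hepcidin, was at 1202, 1049.6, 1335 and 1033 CPM against 329.6, 509, 562 and 387 CPM, 2.58-fold higher (1.37 ± 0.26, adjusted p = 0.00513, and 0.75 on the log2 scale with the length and GC offset). The metallothionein Mt2 was 3.64-fold higher, a call that ended without humanized replicate 1 or 4 (adjusted p up to 0.0603). In the acute phase and complement list 3 of 31 genes were higher and 1 lower, where 7.11% of all genes tested were higher and 8.95% lower. The 3 became 1 without humanized replicate 1 or 4 and 5 with the 8 vehicle libraries alone, and the 1 became 0 without humanized replicate 1 or 3 and 3 without wild-type replicate 4. None of 20 unfolded protein response genes passed in the main edgeR fit, with 2 at an unadjusted p under 0.05 and 1 called by DESeq2. With the vehicle libraries alone 1 was higher and 1 lower. In edgeR with DESeq2 size factors, or without humanized replicate 2 or wild-type replicate 3, 1 was lower. Of 25 interferon genes, 2 were higher and 1 lower, beside the same 7.11% and 8.95% of all genes tested. The 2 became 0 without humanized replicate 1, 3 or 4 or wild-type replicate 1, 2 or 3 and 1 without wild-type replicate 4, without the low-count filter or with sums over accessions. The 1 lower interferon gene became 0 without humanized replicate 1, 3 or 4 or wild-type replicate 1, 2 without wild-type replicate 3 or with the length and GC offset, 3 with the vehicle libraries alone and 5 in DESeq2. Of 12 heat shock genes, 1 was higher, a call that ended without humanized replicate 3 or 4 or wild-type replicate 1, while 2 were higher without wild-type replicate 4 or with the vehicle libraries alone.

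Of 24 male-biased genes 7 passed and of 20 periportal genes 6 passed, against 16.1% of all genes tested. Y-linked Ddx3y was at 19.4 to 84.6 CPM and Xist at 0 to 0.622 CPM in the 8 libraries, and none of the 4 tested sex chromosome genes passed in edgeR (0 at an unadjusted p under 0.05, 0 in DESeq2). Of the male-biased genes, 6 were lower and 1 higher, and the 6 became 3 without humanized replicate 1 or 4. Hsd3b5, a male-biased and rhythmic steroid enzyme, was at 3.84, 27.9, 17.1 and 6.89 CPM against 99.9, 36.9, 207 and 234 CPM, 10.4-fold lower (-3.38, and -3.98 without humanized replicate 2). Cyp4a12b, a fatty acid hydroxylase, was at 56.2 ± 12.2 and 19.3 ± 7.63 CPM, whereas the near-identical Cyp4a12a did not pass (adjusted p = 0.744). Cyp2u1 was 2.97-fold lower. Of 14 tested female-biased genes, 2 were lower, among them Cyp3a44, and none higher. The median of that list was -1.12, and that of the male-biased list -0.53. The 2 became 0 with the vehicle libraries alone, 1 without any 1 humanized replicate and 3 without wild-type replicate 3 or 4. Without wild-type replicate 2, 2 were higher. None of 14 growth hormone signalling genes passed in the main edgeR fit, with 4 at an unadjusted p under 0.05 and 1 called by DESeq2. In edgeR, 1 was lower without the low-count filter, with the length and GC offset or without humanized replicate 2 or wild-type replicate 4. Without wild-type replicate 2, 1 was higher and 1 lower. Igf1 was at 623 ± 53.5 and 419 ± 99.3 CPM (adjusted p = 0.0861). Of 24 pericentral genes 1 was higher and 2 lower, and the 2 became 1 with upper-quartile scaling and without any 1 humanized replicate or wild-type replicate 1. Of the periportal genes 2 were higher and 4 lower. The 4 became 0 without humanized replicate 1 or 4 and 2 without humanized replicate 3 or wild-type replicate 2. The 2 became 0 without humanized replicate 3 or 4, 1 without humanized replicate 2 or wild-type replicate 1, with sums over accessions or with the length and GC offset, and 5 without wild-type replicate 2. Glul, the glutamine synthetase of the innermost pericentral hepatocytes, did not pass (705 ± 96.8 and 953 ± 206 CPM, adjusted p = 0.16). Nnt, which is defective in the C57BL/6J substrain, was at 97 to 144 CPM in all 8 libraries.

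Many markers of Kupffer cells and some of sinusoidal endothelium were lower in humanized livers. In whole liver, fewer cells of a type and less RNA per cell cannot be told apart. Of 16 Kupffer and macrophage markers, 11 were lower (against 8.95% of all genes tested), with a median of -1.26. The 11 became 6 without humanized replicate 3 and 6 without humanized replicate 4. The summed level of the 16 markers was 493 to 755 CPM in humanized and 928 to 1681 CPM in wild-type livers. Adgre1, which encodes the macrophage antigen F4/80, was at 7.67, 9.08, 5.33 and 7.31 CPM against 34.6, 58.8, 32 and 25.1 CPM, 5.12-fold lower (-2.35 ± 0.49, adjusted p = 0.00847). Cd163, the haemoglobin scavenger receptor, was at 15.3, 13.3, 11.2 and 16.1 CPM against 70.1, 35.4, 67.8 and 50.1 CPM. Clec4f, restricted to Kupffer cells, was 2.06-fold lower, Csf1r, the receptor of the macrophage growth factor, 3.78-fold lower and Folr2 3.65-fold lower. Each of these 5 genes had its groups apart.

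Over all genes tested, 8.95% were lower and 7.11% higher. Of 16 sinusoidal endothelial markers, 7 were lower, with a median of -1.06. Their number was 4, 2 and 3 without humanized replicate 1, 3 and 4, 12 in DESeq2 and 14 in a fit of the 8 vehicle libraries alone. Flt4, a receptor of lymphangiogenic growth factors, was at 28.9, 23.5, 27.9 and 22.2 CPM against 51.9, 103, 51.4 and 50.4 CPM, 2.5-fold lower. Stab2, a hyaluronan scavenger receptor, was 2.34-fold lower, and wild-type replicate 2 was the highest library for both. Of 16 stellate cell and fibroblast markers, 3 were lower and 1 higher, and the 3 became 0 without humanized replicate 1, 3 or 4 or wild-type replicate 1 and 1 without humanized replicate 2. Their summed levels overlapped (445 to 475 and 445 to 683 CPM). Col3a1, a fibrillar collagen, was at 73.7 and 136 CPM in wild-type replicates 1 and 2 but at 13.9 to 20.9 CPM in the other 6 libraries, and its call (-1.92 on the log2 scale) ended without either library (-1.83 and -1.14, adjusted p = 0.0766 and 0.138). It also ended with the replicate block, with the length and GC offset and without any 1 humanized replicate. Of 6 tested erythroid markers, 5 were lower, and 1 without humanized replicate 1, 3 or 4. Hbb-bs, a β-globin, was at 22.6 ± 5.32 and 64.4 ± 19.7 CPM, and its call ended without humanized replicate 3 (adjusted p = 0.0518). Cd4, the 1 lymphocyte marker that passed, was low, at 0.28 to 0.622 and 0.951 to 3.09 CPM. Of 8 pancreatic acinar markers, 6 had no count in any of the 8 libraries. Of 12 hepatocyte markers, 1 was lower: Alb, at 29021 ± 4040.3 and 49739 ± 14153 CPM, lost its call with upper-quartile scaling and without humanized replicate 1, 3 or 4 or wild-type replicate 1 or 2 (up to 0.106). The summed hepatocyte markers, 81072 to 108978 CPM in humanized and 111770.0 to 147187 CPM in wild-type livers, did not overlap either. Alb was the largest member of that sum, and the 12 markers did not move together. Without overlap, 2 of the 12 lay above and 3 below the wild-type range, against 14.4% and 12% of all genes tested. The part of cell composition in the differences of other genes was not tested.

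**Figure D4:**
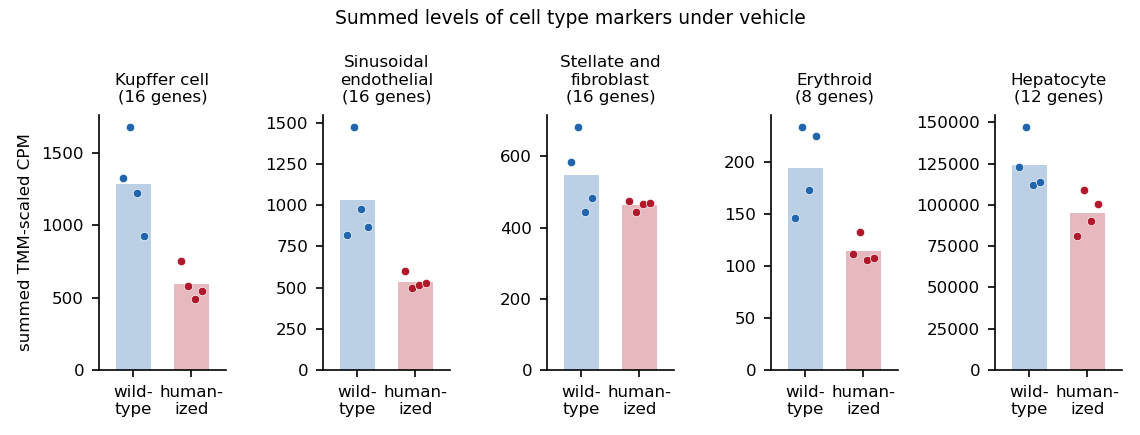
Summed TMM-scaled CPM of the markers of 5 cell types in the wild-type (blue) and humanized (red) vehicle livers, with points for single libraries and bars for group means. Kupffer cell, sinusoidal endothelial, erythroid and hepatocyte sums do not overlap between the strains, and stellate cell sums do. Alb is the largest member of the hepatocyte sum.

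The largest differences outside the lists, by the rule for named genes, included genes with little in common by function. Serpina12, which encodes the adipokine vaspin, was at 1.24, 2.68, 4.63 and 1.46 CPM in humanized livers and 51.9, 7.04, 49.9 and 75.8 CPM in wild-type livers, 18.5-fold lower (-4.24 ± 0.61, adjusted p = 0.000765). Mgat5, a glycan-branching transferase, was at 0.415, 1.16, 0.701 and 0.626 CPM against 6.16, 7.99, 7.32 and 5.91 CPM, 9.43-fold lower. Acss3, a mitochondrial acyl-CoA synthetase, was 11.4-fold lower, Nxpe2 9.49-fold lower, the pacemaker channel gene Hcn3 9.91-fold lower and the water channel gene Aqp4 9.05-fold lower. Slc34a2, a phosphate transporter, and Krt4, a keratin of stratified epithelia, were highest by far in wild-type replicate 2, at 74 and 51.4 CPM against 1.31 to 7.19 and 0.188 to 1.47 CPM in the other wild-type libraries. Their folds were 121 and 499 (89.1 to 19731 by counting alone). Without that library the log2 difference went from -6.86 to -4.16 for Slc34a2 and from -8.43 to -3.92 for Krt4, whose value was -10.34 without humanized replicate 2. DESeq2 gave no adjusted p for Krt4.

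In the other direction, Chka, choline kinase, combined a high level with tight groups. It was at 331, 265, 281 and 351 CPM in humanized livers and 41.7, 46.3, 46.3 and 50 CPM in wild-type livers, 6.67-fold higher (2.74 ± 0.40, adjusted p = 0.000936). Slc15a2, a peptide transporter, was at 30.9, 17.3, 22.8 and 21.1 CPM against 2.05, 2.28, 1.13 and 4.09 CPM, 9.64-fold higher. Its gene lies 1463 kb from Nr1i2, among the called neighbours of that locus. Cdc42ep5 was 10.8-fold higher, Fam222a 7.13-fold higher, Ankrd23 4.83-fold higher, Clstn3 4.17-fold higher and the noncoding RNA Snhg20 3.92-fold higher (1.98, and 1.30 on the log2 scale with the length and GC offset). Sik1, a salt-inducible kinase that acts downstream of cyclic AMP, was at 122 ± 37.5 and 27.2 ± 5.26 CPM. Meg3, an imprinted noncoding RNA, was at 19 CPM in humanized replicate 1 and 1.82 to 4.59 CPM in the other humanized libraries, and its call (2.66 on the log2 scale) ended without replicate 1 (1.46, adjusted p = 0.086).

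The same strains were also compared under TCPOBOP, in 8 other mice fitted together with these. There 3175 genes passed (24.6% of genes tested). Of the 2074 genes called under vehicle, 1647 (79.4%) had the same sign under TCPOBOP, 632 (30.5%) passed in the same direction and 100 passed in the opposite direction. The strain difference itself differed between TCPOBOP and vehicle, by the interaction term, for 301 of the 2074 (14.5%). Over all 12913 genes tested it did so for 963. The 2074 were chosen by the vehicle difference, which enters the interaction, so a larger share among them is partly set by that choice.

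The humanized TCPOBOP livers were not alike in these genes. Of the 2074 genes, 77% and 71.7% were nearer to the humanized than to the wild-type vehicle mean in humanized TCPOBOP replicates 1 and 2, but 16.2% and 18.8% in replicates 3 and 4. In the 4 wild-type TCPOBOP libraries the share was 15.1 to 20.7%. Mgat5 was at 0.295, 1.12, 7.89 and 5.69 CPM in humanized TCPOBOP replicates 1 to 4. Adgre1 was at 2.95, 6.14, 30.9 and 25.8 CPM and Cd163 at 17.7, 16.5, 54.7 and 46.2 CPM. The last pair of libraries thus lay at wild-type levels for these 3 genes. The engineered genes did not follow this division: Nr1i2 was at 17.3, 23.2, 18.3 and 14.5 CPM, Nr1i3 at 2.21 to 5.02 CPM and Cyp3a11 at 0.237 to 0.819 CPM in all 4. Without replicates 3 and 4, 1213 of the 2074 genes passed in the same direction under TCPOBOP and 68 in the opposite direction. The labels give no further difference between these libraries.

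Single genes kept, lost or turned the strain difference under TCPOBOP. Cyp1a1 was lower in humanized livers under both (-1.61 and -1.70 on the log2 scale), and so were Cyp2c50 (-1.99 and -3.27) and Pklr (-2.35 and -1.52). Oat (1.60 and 2.63), Hamp (1.37 and 1.74), Nfil3 (2.14 and 1.98) and Chka (2.74 and 1.65) were higher under both. Gstm3 and Gsta1 turned, from 1.99 to -4.92 and from 3.33 to -7.37, with adjusted p-values for the interaction of 3.48e-09 and 3.85e-07. Slc2a2 turned from -2.98 to 1.15 (interaction adjusted p = 4.27e-05), and Hsd3b5 from -3.38 to 2.35 (0.000593). Noct and Rgs16 no longer passed under TCPOBOP (-0.53 and 0.39, interaction adjusted p = 7.07e-06 and 0.00127).

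**Figure D5:**
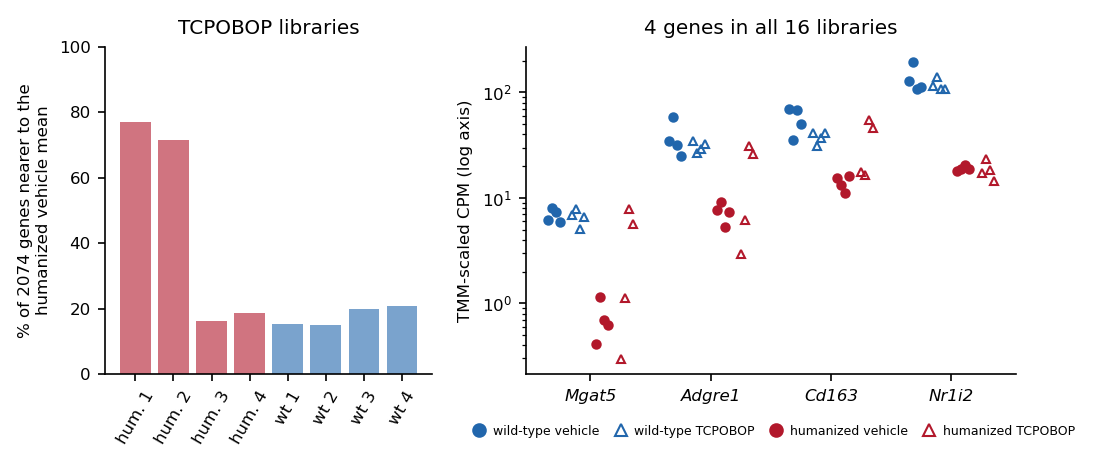
Left, percentage of the 2074 genes called under vehicle for which each TCPOBOP library was nearer to the humanized than to the wild-type vehicle mean, and right, TMM-scaled CPM on a log axis of 4 genes in all 16 libraries. Humanized TCPOBOP replicates 3 and 4 stand at 16.2 and 18.8%, among the wild-type libraries at 15.1 to 20.7%, and reach wild-type levels of Mgat5, Adgre1 and Cd163 but not of Nr1i2.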

How the data were processed

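The labels describe Trizol extraction of liver RNA, selection of polyadenylated RNA from 1 µg and NEBNext libraries. Per the submitters' processing notes, STAR, DESeq2 and the mm10 genome were used. The counting program, annotation release and strandedness are not given in those sources. Counts were deposited as whole numbers for 40458 RefSeq accessions in 16 libraries, and vehicle libraries held 11827994 to 19483951 of them. Among counts of at least 20, 74.9% were even, so the values may be halved counts, and floors and intervals are approximate and cover counting error only. Accessions were joined to symbols through RefSeq (40219) and GENCODE (125), and 114 without a symbol, with 0.227 to 0.582% of a library's counts, stayed as genes of their own. For each gene the accession of highest mean count was used.

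All 16 libraries were fitted in edgeR 4.0.16 (limma 3.58.1, R 4.3.3) with 4 group means, filterByExpr, TMM factors and two-sided quasi-likelihood F tests. Residual degrees of freedom were 12, and the common biological coefficient of variation was 0.259. Calls are Benjamini-Hochberg adjusted p-values under 0.05 over all 12913 genes. The interaction is the strain difference under TCPOBOP minus that under vehicle. Tables were handled in pandas 2.3.3 and correlations in scipy 1.17.1. Alternatives were other scaling (DESeq2 size factors, upper quartile), DESeq2 1.42.0, other low-count filters, the 8 vehicle libraries alone, sums over accessions, a replicate block, a length and GC offset (lowess span 0.3), no engineered genes, and leaving out each vehicle library. The fits were tested on simulated data, where DESeq2 made a larger share of false calls than edgeR.

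Named genes are the 15 largest called differences in each direction (mean of at least 5 CPM in 1 group, groups apart, no predicted genes), up to 5 called members of each of 39 lists by p, a fixed set of 35 genes, the Cyp3a genes and called genes within 5 Mb of an engineered locus. Genes outside this rule were named after their values were seen: Cyp2a5, Clock, Bhlhe41, Tef, Wee1, Gys2, Gbe1, Slc37a4, Ehhadh, Mup7, Msln, Upk3b and Wt1. Comparison, lists and rule were chosen with earlier results of these data known. A few genes that the rule takes are not reported here. Sequences come from RefSeq (GRCm38.p6, the reference behind mm10).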

Additional observations from a re-analysis of the deposited data

Results flagged for a closer look

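Of the fixed set, 11 genes passed under vehicle. For 6 of these, the strain difference under TCPOBOP differed from that under vehicle by the interaction term of the edgeR fit. That term passed for 963 of all 12913 genes tested and for 301 of the 2074 called under vehicle. The 11 were kept for their vehicle difference, which enters the interaction, so the 6 is partly set by that choice. On the log2 scale the difference of differences was 1.60 for Nr1i3 (adjusted p = 0.00325), -0.95 for Cyp1a2 (0.0461), -3.45 for Cyp2b10 (0.00141), 4.12 for Slc2a2 (4.27e-05), 4.20 for Dbp (0.00148) and 2.32 for Ppara (0.00262). For Slc2a2, humanized TCPOBOP libraries were at 87.6, 141, 318 and 239.7 CPM against 60.7 to 113 CPM in wild-type TCPOBOP livers. For Cyp2b10, they were at 63.3 to 201 CPM against 2871 to 3561 CPM.

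In 20 of 316 sets of 4 libraries examined among the named genes, 1 library lay so far from the other 3 that its gap exceeded Dixon's 95% critical value, where chance gives about 1 in 20. Wild-type replicate 2 was that library in 10 of the 20. It was the highest for Ehhadh (2041 CPM), Mvk (52.8), Flt4 (103), Stab2 (199), Cdh5 (88.5), Krt4 (51.4) and Slc34a2 (74), and the lowest for Ndufb4 (0.761), Igf1 (270.0) and Nxpe2 (5.04). Humanized replicate 1 was highest in 4: Cyp1a2 (429 CPM), Cyp2b10 (23.1), Gsta1 (3.21) and Meg3 (19). Wild-type replicate 4 was highest for Gys2 (216 CPM), Hspb1 (8.91) and Acss3 (13.2). Humanized replicate 2 was highest for Slc10a1 (274 CPM), and humanized replicate 4 lowest for Nr0b2 (73.9) and Cth (822).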

How the results depend on the processing

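No named gene past the threshold changed direction under an alternative that gave it a value. Over all pairs of a named gene and an alternative, 2902 stayed on their side of the threshold, 275 lost the call and 12 gained it. The counts over all genes stayed within 1.5 times under other scaling, filters, tools and value definitions, but not when single libraries were left out. Over all pairs of a gene list's count and an alternative, 1223 stayed within 1.5 times and 259 moved further. Among these, lower endothelial markers went from 7 to 12 in DESeq2, lower cholesterol synthesis genes from 8 to 5 with upper-quartile scaling and lower conjugation and efflux genes from 3 to 9 with the length and GC offset. With that offset, higher ribosomal protein genes went from 16 to 5 and higher Nduf genes from 10 to 1. Leaving out each vehicle library gave 614 to 2469 genes past the threshold, 240 to 1115 higher and 374 to 1354 lower, and 194 to 698 past it in the same direction under TCPOBOP. Without humanized TCPOBOP replicates 3 and 4, an alternative chosen after seeing the data, these 4 numbers were 3489, 1697, 1792 and 2146. The cause was not tested, apart from the fewer samples of each such fit. The 20.2% of called neighbours within 5 Mb became 17.4% at 2 Mb and 18.6% at 10 Mb. DESeq2 called 2857 genes and the 8 vehicle libraries alone 2637. Same-numbered libraries of the 2 strains did not deviate together (correlations -0.03, -0.15, 0.01 and 0.01, against -0.18 to 0.17 for unlike numbers). Whether the numbers pair the libraries cannot be told from 4 libraries per group. The replicate block gave 2025 calls, 971 higher and 1054 lower, 1850 of them among the 2074, and 621 in the same direction under TCPOBOP. The cell cycle list had 2 lower genes with the block in place of 9. A level under 3 counts, 0.263 to 0.439 CPM, cannot be told from 0.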

Other observations

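Several gene families, chosen after their values were seen, had calls only or mostly in 1 direction. Of all genes tested, 7.11% were higher and 8.95% lower. Of 78 ribosomal protein genes, 16 were higher in humanized livers, with a median log2 difference of 0.63, and 5 with a median of 0.18 after the length and GC offset. Of 48 Nduf genes, subunits and assembly factors of respiratory complex I, 10 were higher, against 1 higher and 1 lower with the offset. These 2 families have short transcripts, the class in which the strain difference ran highest. Of 308 Zfp genes, which encode zinc finger proteins, 43 were higher and 3 lower, and with the offset 62 and 5. Without humanized replicate 1, the higher calls were 4 ribosomal protein, 1 Nduf and 11 Zfp genes. Of 17 Snhg genes and Gas5, hosts of small nucleolar RNAs, 5 were higher with and without the offset, and 2 without humanized replicate 1.

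Of 20 tested Mup genes, the major urinary proteins, 7 were lower, against 8.95% of all genes tested. The median of the 20 was -2.16, and none were called higher by edgeR. Their summed level was 2848 to 6171 CPM in humanized and 1149.8 to 12585 CPM in wild-type livers, so the groups overlapped. The 7 calls became 1 without humanized replicate 1 or 4, 3 without wild-type replicate 4, 4 without humanized replicate 3 or wild-type replicate 1 and 13 without wild-type replicate 2. Mup7 was at 10.4, 397, 491 and 157 CPM in humanized livers and 2908, 42.1, 3966 and 4356 CPM in wild-type livers, and wild-type replicate 2 lay within the humanized range. Mup genes share nearly all of their sequence, so single members are uncertain. Under TCPOBOP 3 Mup genes were higher, with a median of 0.21.

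Genes of the mesothelium, the layer that covers the liver, were looked at after Upk1b was seen. Msln was at 0.191 ± 0.174 CPM in humanized and 3.63 ± 2.02 CPM in wild-type livers (adjusted p = 0.021), and its call ended without humanized replicate 1 or 3 (up to 0.065). Upk3b was 34.4-fold lower by counts (95% counting interval 11.5 to 169), and its call ended without humanized replicate 1 or 4 (up to 0.0618). Wt1, another mesothelial gene, was at 0.425 ± 0.328 and 1.01 ± 0.487 CPM and did not pass (adjusted p = 0.149).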
